A study of Homo sapiens with 12 samples.

Results

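The comparison described here is that of 2 guide RNAs at 1 setting of the other factor, the luciferase single guide RNA (sgRNA) against the sgRNA named 6T within the condition that the authors call B. Its members are the 3 Luciferase and 3 6T libraries of condition B, 6 of the 12 libraries of the study, and 14078 of the 26485 genes listed. A gene was included when the mean of its deposited Luciferase and 6T means in condition B was 10 or more, and its difference was first taken as the log2 of (Luciferase + 1) over (6T + 1).

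PolyA RNA was sequenced from HEK293T, a human line of embryonic kidney origin that expresses a viral protein, large T antigen, which binds p53. Cells received plasmids of the PX330-GFP type by polyethylenimine, at 2 µg of DNA and 6 µl of reagent per well, that encoded 1 of the 2 sgRNAs, and each guide was given both in the presence and in the absence of the Cas9 nuclease. This makes 4 groups of 3 libraries each, and human cells have no luciferase gene. Which of the conditions A and B contained Cas9 is not given in the table headers, and the order may differ between the tables, so it is an assumption that B was the same treatment under both guides. If it was not, the guide and the presence of Cas9 differ together and cannot be told apart. Separate cultures are not stated for the replicates, and p-values then measure only the spread between these libraries, which may be technical.

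Reads of single libraries were recovered from the deposited means and are given as reads divided by the library's size factor, the scaling that makes libraries comparable (normalized reads). Libraries are named B1 to B3 in order of size factor, which is no replicate number. Reads in genes ranged from 6653586 to 8290085 in the 6T libraries and from 19401530 to 38110891 in the Luciferase libraries, so guide and depth went together in condition B and cannot be told apart there. Condition A held neither of these library sets and was sequenced to like depths under both guides (5888019 to 8261138 reads in genes), and its values are given beside those of condition B. Of 15 markers of the HEK293T line 14 were measured, with summed levels of 17691 to 18972 normalized reads under 6T and 17293 to 18102 under Luciferase. The leukocyte marker PTPRC was listed at 0 under 6T and at a mean of 0.0853 normalized reads under Luciferase. In bulk RNA, fewer cells of a type and less RNA per cell cannot be told apart.

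Several stress programmes frame these data. The transcription factor p53 is stabilised by DNA damage and switches on genes of cell cycle arrest, cell death, DNA repair and its own feedback. ATF4 is translated when amino acids run short or the endoplasmic reticulum is stressed and switches on amino acid synthesis and transport. Heat shock factors switch on chaperones when proteins misfold, and interferons or foreign RNA switch on antiviral genes such as the IFIT and OAS families.

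The motifs that these factors read are shown first for the genes on which the results turn, to place the values below beside the sequence. Each stretch of 60 bases lies upstream of the gene's start in the RefSeq promoter table (GRCh38.p14), from which it was taken, 5′ to 3′ on the gene's strand, with the motif in capitals. For AEN, a nuclease gene that p53 controls, the capitals mark a p53 decamer (chr15:88621280-88621339, plus strand). For ASNS, the asparagine synthetase gene, they mark TGATGNAA, the element read by CCAAT enhancer binding proteins and ATF4 (chr7:97872437-97872496, minus strand). For IFIT1 (chr10:89392487-89392546, plus strand) and IFIT3 (chr10:89327821-89327880, plus strand) they mark GAAANNGAAA, the interferon-stimulated response element, on the opposite strand, and the last match in IFIT3 runs past the stretch shown. The GENCODE 29 models of AEN and ASNS start farther upstream than the RefSeq ones, so most or all of their stretches lies inside those models.
AEN: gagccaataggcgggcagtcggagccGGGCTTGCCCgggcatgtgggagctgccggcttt
ASNS: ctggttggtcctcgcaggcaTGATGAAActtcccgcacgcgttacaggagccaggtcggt
IFIT1: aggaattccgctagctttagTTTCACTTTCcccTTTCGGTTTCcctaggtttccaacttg
IFIT3: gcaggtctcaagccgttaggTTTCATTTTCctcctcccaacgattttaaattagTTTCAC

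Both strands of the 250 bases before each start were searched, with overlapping matches allowed. A p53 decamer was found in 4 of the 25 p53 targets in the table against 5.53% of 27305 promoters, TGATGNAA in 3 of 26 ATF4 targets against 3.19%, and GAAANNGAAA in 13 of 25 interferon-stimulated genes against 3.07%. A match describes letters and is no evidence that a factor bound there.

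Across the transcriptome the 2 guides gave nearly equal levels in condition B. The median of the log2 ratio was −0.01 over 14078 genes, its standard deviation across genes was 0.21, and 98.0% of genes lay within 1.5-fold. A difference of 2-fold or more was found for 40 genes, 26 higher and 14 lower under Luciferase, and 30 of them had a mean of 10 to 50 normalized reads. The balance of directions depended on these low genes, with 8 higher and 8 lower when 10 was added in place of 1, and 3 higher and 7 lower among genes with a mean of 50 or more. In limma's moderated test with Benjamini-Hochberg adjustment, fitted to all 12 libraries, 0 of 13965 genes passed an adjusted p of 0.05 (0%), and the smallest adjusted p was 0.161. At an unadjusted p under 0.05 there were 750 genes, 483 higher (3.46%) and 267 lower (1.91%) under Luciferase. After GC correction the split was 543 higher and 521 lower, and with library quality weights it was 1214 and 1191. The count of 750 was 474 without library Luc-B1, 477 without 6T-B2 and 1238 without 6T-B1. No gene below is therefore called changed in condition B, and values are given as levels and differences.

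**Figure D1:**
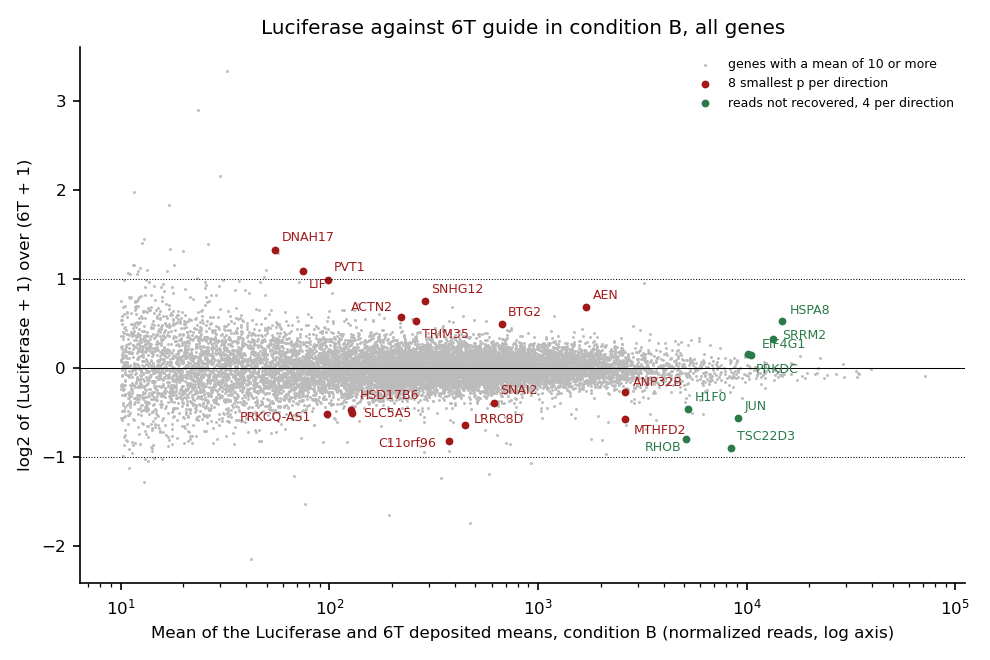
Log2 of (Luciferase + 1) over (6T + 1) in condition B (vertical axis) against the mean of both deposited means in normalized reads (horizontal log axis), each grey point 1 gene. Red points are the 8 genes with the smallest p in each direction among those with a mean of 50 or more. Green points are genes whose single-library reads were not recovered, and dotted lines mark 2-fold. Most points past 2-fold lie at the left, at means of 10 to 50.

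The genes with the smallest p on the higher side were led by AEN, which encodes an exonuclease with a role in p53-dependent cell death (hg38, chromosome 15, from 88621296 to 88632282). AEN stood at 1136, 1303 and 1478 normalized reads in the 6T libraries and at 2275, 2089 and 1933 in the Luciferase libraries. Every Luciferase library lay above every 6T library, and the log2 difference was 0.69 (SE 0.10, limma adjusted p = 0.161). The adjusted p fell to 0.0143 after correction for GC content and to 0.0496 without library 6T-B3, and over 17 alternatives it ranged from 0.00418 to 0.855. In condition A, whose libraries share only the normalization and the pooled spread with these values, the same contrast gave 0.88 (SE 0.10, limma adjusted p = 0.00986).

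BTG2, an antiproliferative gene that p53 also controls, stood at 539.9, 551.6 and 571.9 normalized reads under 6T and at 838.1, 779.0 and 730.7 under Luciferase. Its libraries did not overlap between guides, with a log2 difference of 0.49 (SE 0.10, limma adjusted p = 0.223). LIF, which encodes a cytokine of the interleukin-6 family (chromosome 22, from 30240447 to 30246851), stood at 43.98, 41.89 and 56.11 under 6T and at 119.3, 90.1 and 96.2 under Luciferase. The lowest Luciferase library again lay above the highest 6T library, and the mean was 2.15-fold higher (log2 difference 1.09, SE 0.19, limma adjusted p = 0.161). DNAH17, an axonemal dynein heavy chain (chromosome 17, from 78423697 to 78577394), stood at 19.7, 26.5 and 46.6 under 6T and at 83.8, 72.5 and 82.1 under Luciferase. That is 71 against 671 recovered reads before scaling, a log2 difference of 1.42 (SE 0.26, limma adjusted p = 0.163), and an adjusted p of 0.0352 without library 6T-B3.

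Noncoding RNAs were among the same genes. SNHG12, a host transcript of small nucleolar RNAs annotated as antisense on chromosome 1 (from 28578538 to 28583132), stood at 182.0, 243.0 and 219.7 normalized reads under 6T and at 387.3, 377.4 and 321.1 under Luciferase. PVT1, a long noncoding RNA gene, stood at 57.6, 62.8 and 75.2 under 6T and at 135.5, 139.1 and 117.9 under Luciferase. For both transcripts the guides did not overlap, with log2 differences of 0.75 (SE 0.13) for SNHG12 and 1.00 (SE 0.17) for PVT1, each at a limma adjusted p of 0.161. The strand used in counting is not stated, so reads of SNHG12 and of genes on the opposite strand cannot be told apart. ACTN2, an actin crosslinker, had a log2 difference of 0.57 (SE 0.11), and TRIM35, a ubiquitin ligase, one of 0.53 (SE 0.10), also without overlap between the guides (both at a limma adjusted p = 0.220).

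On the lower side p-values were larger, and the smallest adjusted p among the 8 genes taken was 0.726. SNAI2, a transcriptional repressor of epithelial genes, stood at 706.8, 688.4 and 702.0 normalized reads under 6T and at 504.1, 552.1 and 547.3 under Luciferase. SLC5A5, the sodium iodide symporter gene (chromosome 19, from 17871973 to 17895174), stood at 141.1, 157.8 and 155.2 under 6T and at 111.2, 114.0 and 93.6 under Luciferase. ANP32B, an acidic nuclear phosphoprotein (chromosome 9, from 97983361 to 98015943), stood at 2851, 2733 and 2929 under 6T and at 2375, 2400 and 2302 under Luciferase. In these 3 genes the 6T libraries were close to one another and all above the Luciferase libraries, with log2 differences of −0.39 (SE 0.10), −0.51 (SE 0.13) and −0.27 (SE 0.07). HSD17B6, a steroid dehydrogenase gene, at −0.47 (SE 0.13), and the antisense transcript PRKCQ-AS1, at −0.51 (SE 0.14), showed the same layout of libraries.

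The other 3 genes on that side had a different layout, with library 6T-B2 far above the rest. MTHFD2, a mitochondrial folate enzyme and ATF4 target (chromosome 2, from 74198562 to 74217565), stood at 2402, 4055 and 2924 under 6T and at 2023, 2158 and 2135 under Luciferase. Its log2 difference of −0.54 (SE 0.15) became −0.33 without library 6T-B2. LRRC8D, a subunit of the volume-regulated anion channel, went from −0.60 (SE 0.17) to −0.41 without that library. C11orf96, with 703.8 normalized reads in 6T-B2 against 359.5 and 372.5 in the other 6T libraries, went from −0.75 (SE 0.21) to −0.43.

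**Figure D2:**
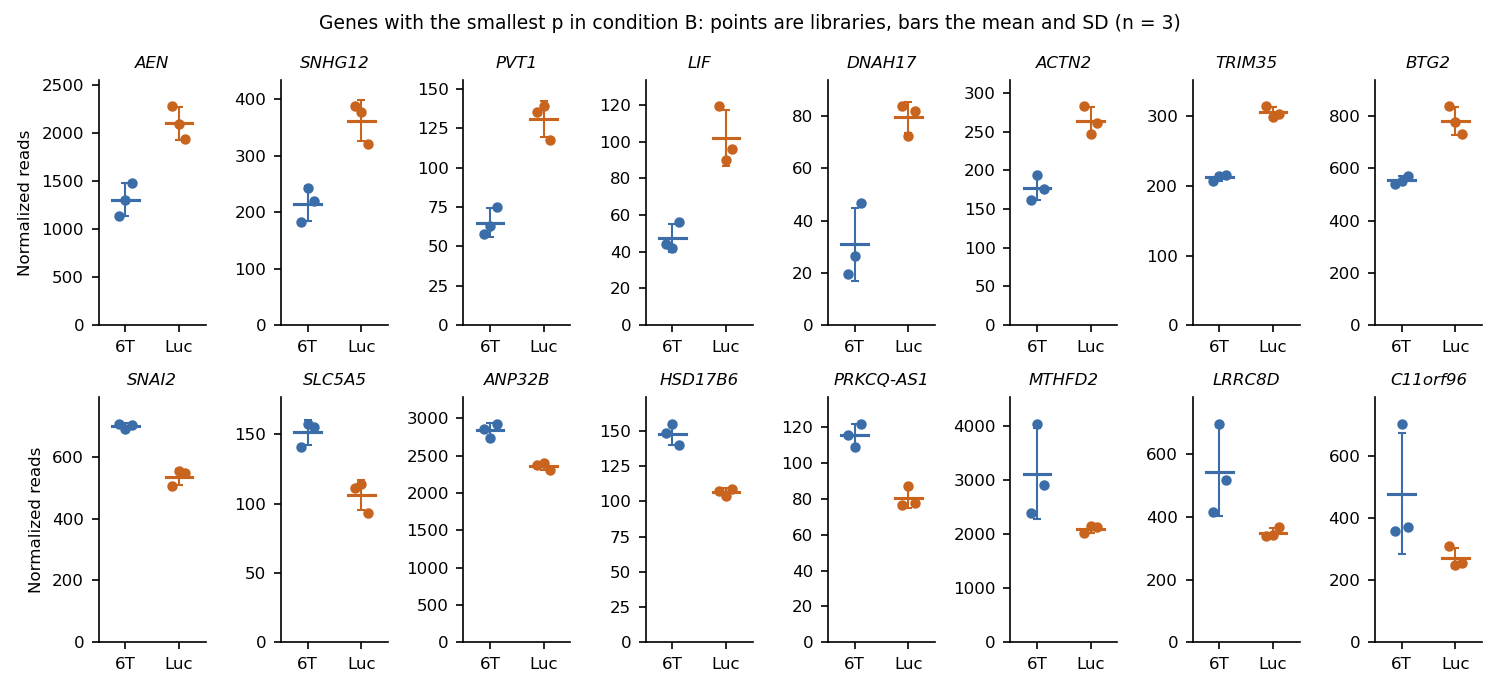
Normalized reads of the 8 genes with the smallest p in each direction among those with a mean of 50 or more. Genes higher under Luciferase are in the upper row and lower ones in the lower row. Points are the 3 libraries of a guide, horizontal bars the mean and whiskers the SD (n = 3), on linear axes from 0. The guides do not overlap in any panel, and in the panels of MTHFD2, LRRC8D and C11orf96 1 of the 6T libraries lies well above the other two.

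These genes were chosen for their small p, so the separation of their libraries is no further evidence, and 6.71% of all tested genes had every Luciferase library above every 6T library and 6.19% every one below. Condition A offered libraries that the choice did not use, although both conditions share the normalization and the pooled spread. All 8 genes of the higher side were also higher under Luciferase in condition A, with log2 differences from 0.10 to 2.11, and 3 of them (AEN, DNAH17 and LIF) were called there. Of the 8 genes of the lower side 7 were lower in condition A and SNAI2 was called, at −0.58 (SE 0.10, limma adjusted p = 0.0485), a call lost after GC correction (−0.27, limma adjusted p = 0.205). C11orf96, at 0.07, was the exception. In condition A 14 of 13974 genes were called (0.1%), and all 14 had the same direction and an unadjusted p under 0.05 in condition B. Those calls rested on few libraries, since 0 genes were called in condition A without 6T-A1, 6T-A3 or Luc-A1, 2 without Luc-A3, 4 without 6T-A2 and 1078 without Luc-A2.

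The longer lists of genes with a small p in condition B were compared in the same way. At an unadjusted p under 0.05, 12.8% of genes were higher and 18.7% lower under Luciferase in condition A. Of the 483 genes higher in condition B at an unadjusted p under 0.05, 428 (88.6%) were higher in condition A, against 48.7% of 13859 genes in both tests. Of the corresponding 264 lower genes, 169 (64.0%) were lower in condition A, against 51.3%. Differences in condition A followed GC content (Spearman's rho 0.73 across genes), and after correction for it the shares were 82.3% against 36.5% and 81.0% against 63.5%. In condition B itself the log2 ratio had a rho of 0.08 with GC content and 0.09 with transcript length over 13316 genes, which are not independent replicates.

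The difference between the guides was tested for a change from condition A to B with an interaction term, and 0 of 13859 genes passed (0%), with 1314 at an unadjusted p under 0.05. The smallest p belonged to GPR27, an orphan receptor gene, which stood at 241.2, 237.4 and 241.2 normalized reads under 6T and 206.6, 195.5 and 184.2 under Luciferase in condition B (log2 difference −0.30, SE 0.13). In condition A its difference was 0.67 (SE 0.13), and the limma adjusted p of the change was 0.483. PPP1R14B, an inhibitor of protein phosphatase 1, went from 0.62 (SE 0.12) in condition A to −0.22 (SE 0.12) in condition B. OMA1, a mitochondrial stress protease, went from −0.88 (SE 0.16) to 0.11 (SE 0.16). After GC correction the values in condition A were 0.48 for GPR27, 0.33 for PPP1R14B and −0.52 for OMA1.

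The p53 targets had the highest median of the 27 gene lists that are not cell type markers. All 30 listed genes were measured, 23 (76.7%, against 48.3% of all genes) were higher and 7 lower under Luciferase, and the median log2 ratio was 0.21 against −0.01 over all genes. None was called, and 9 members were higher at an unadjusted p under 0.05 against a background of 3.46%, with 1 lower (PMAIP1). In 12 of 30 members every Luciferase library lay above every 6T library, against 6.71% of all tested genes. In condition A the list had 22 of 30 members higher, against 6891 of all 14078 genes, and a median of 0.26 against −0.01. There 2 of 30 members were called (AEN and PHLDA3), against 0.1% of 13974 genes. Differences in condition A followed GC content, and after correction for it AEN went from 0.88 to 0.60 (limma adjusted p = 0.0266).

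Among repair genes of the list, DDB2, which recognises ultraviolet damage, stood at 213.9, 377.0 and 302.1 normalized reads under 6T and at 553.3, 455.7 and 428.8 under Luciferase. POLH, the polymerase that copies past such damage, stood at 626.4, 624.2 and 657.8 under 6T and at 923.8, 838.6 and 803.6 under Luciferase. In both genes the guides did not overlap (log2 difference 0.71, SE 0.19, for DDB2 and 0.42, SE 0.09, for POLH, limma adjusted p = 0.805 and 0.274). XPC, another damage sensor, differed by 0.17 (SE 0.09) with overlap between the guides. RRM2B, a subunit of ribonucleotide reductase, differed by 0.16 (SE 0.31).

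Among death and survival genes, PHLDA3, an inhibitor of the kinase AKT, stood at 350.4, 403.6 and 456.1 under 6T and at 670.5, 573.7 and 517.6 under Luciferase. TP53INP1, a proapoptotic cofactor of p53, stood at 78.9, 96.4 and 93.1 under 6T and at 116.8, 140.3 and 168.3 under Luciferase. Neither gene overlapped between guides in condition B, but in condition A the log2 difference was 0.93 (SE 0.15) for PHLDA3 and 0.03 (SE 0.19) for TP53INP1. After GC correction the value of TP53INP1 in condition A was 0.45 and that of PHLDA3 was 0.65. The death gene BBC3, at 0.03 (SE 0.22), had a difference smaller than its error. PMAIP1, a death gene that ATF4 can also induce, stood at 1313, 2419 and 1620 under 6T and at 1041, 1235 and 1354 under Luciferase, with overlap between the guides.

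Among arrest and feedback genes, CDKN1A, the p21 inhibitor of cyclin-dependent kinases, stood at 787.2, 1315 and 1071 under 6T and at 1387, 1152 and 1112 under Luciferase. Its guides overlapped, with a log2 difference of 0.23 (SE 0.18) in condition B and 0.84 (SE 0.18) in condition A. MDM2, the ubiquitin ligase that degrades p53, did not overlap but differed by 0.25 (SE 0.15), and PPM1D, a phosphatase that switches the pathway off, by 0.35 (SE 0.09, limma adjusted p = 0.726). The medians of the list by library, as deviations from each gene's mean over 6 libraries on the log2 scale, were −0.19, −0.09 and −0.13 under 6T and 0.10, 0.11 and 0.12 under Luciferase. No single library set the direction, since the median of the members' log2 differences, 0.22, ranged from 0.19 to 0.29 when each library was left out.

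**Figure D3:**
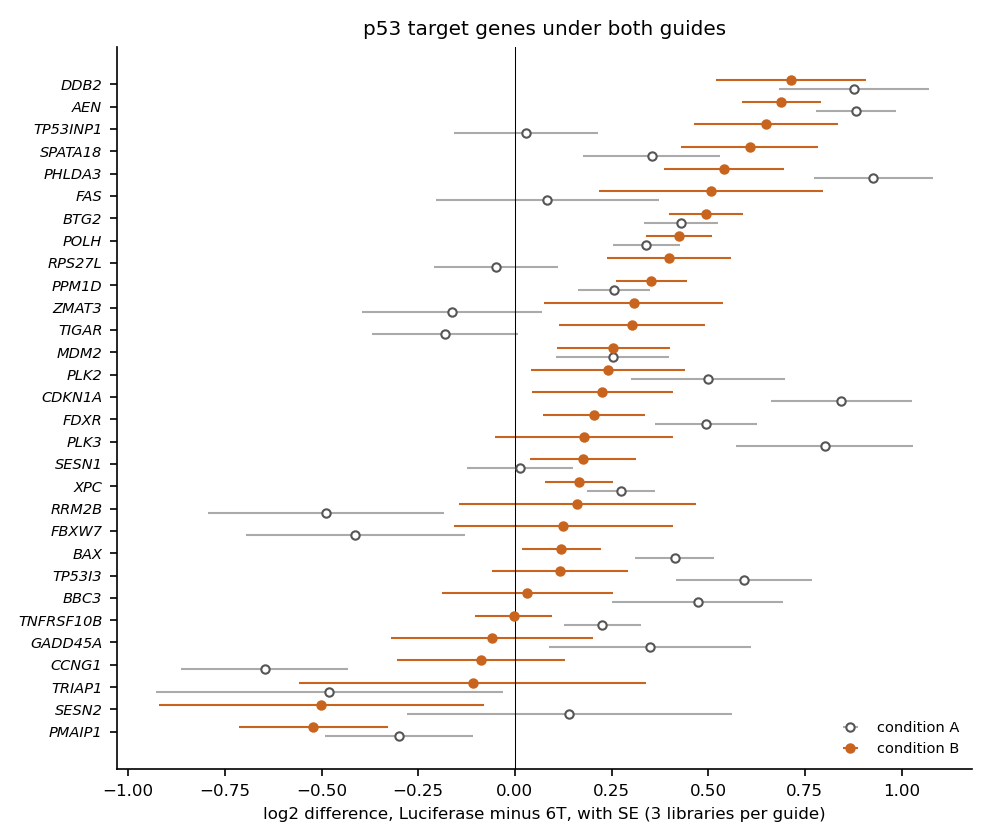
Log2 difference of Luciferase minus 6T for the 30 p53 target genes, ordered by their value in condition B (filled), with condition A (open). Bars are the SE of limma's fit over 3 libraries per guide. The points of AEN, DDB2, BTG2 and POLH lie to the right of 0 in both conditions, and that of RPS27L lies at 0.40 in condition B and at −0.05 in condition A.

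The ATF4 targets had the lowest median of all lists and 6T libraries that differed widely among themselves. Of 32 measured members 30 (93.8%, against 51.7% of all genes) were lower and 2 higher (ATF5 and GDF15) under Luciferase, with a median log2 ratio of −0.55 in condition B and 0.03 in condition A. None was called, and 14 of 31 tested members were lower at an unadjusted p under 0.05 against a background of 1.91%, with GDF15 higher. ASNS stood at 1508, 4227 and 2008 normalized reads under 6T and at 1370, 1448 and 1603 under Luciferase. CHAC1, which degrades glutathione, stood at 131.9, 952.4 and 1092 under 6T and at 189.8, 156.3 and 302.2 under Luciferase. In CHAC1 the library 6T-B1 lay below all 3 Luciferase libraries and the other two lay above them.

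This layout ran through the list. Library 6T-B2 was the highest of the 6 libraries in 28 of 31 members, 6T-B1 the lowest of the 6T libraries in 30, and 6T-B1 below the highest Luciferase library in 24. The share of all tested genes with these layouts is not given here, so the counts are a description. The medians by library were −0.28, 0.64 and 0.28 under 6T and −0.30, −0.33 and −0.21 under Luciferase, so 6T-B1 stood at the level of the Luciferase libraries. Over all genes these medians lay between −0.006 and 0.014. The median difference of the tested members, −0.51, became −0.29 without 6T-B2 and −0.75 without 6T-B1. Members of each role shared the layout, among them the transcription factors ATF3 (1062, 4492 and 2871 under 6T) and DDIT3 (154.7, 759.7 and 563.5 under 6T). So did the cystathionine lyase gene CTH, at 361.0, 1382 and 690.1 under 6T and between 339.1 and 379.4 under Luciferase. The 12 libraries' second principal component, with 13.7% of the variance, placed 6T-B2 farthest from 0.

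The message of ATF4 itself, which is regulated mainly in translation, had deposited means of 11474 under 6T and 10643 under Luciferase. Of 20 cytosolic aminoacyl-tRNA synthetase genes, several of which ATF4 controls, 17 (85.0%, against 51.7% of all genes) were lower, 5 of them at an unadjusted p under 0.05 against a background of 1.91%, and the median log2 ratio was −0.20. Of these GARS, the glycyl-tRNA synthetase gene, had the smallest p and stood at 2721, 4180 and 3460 under 6T and at 2663, 2629 and 2688 under Luciferase. Without 6T-B2 the median of this list's log2 differences went from −0.19 to −0.10.

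**Figure D4:**
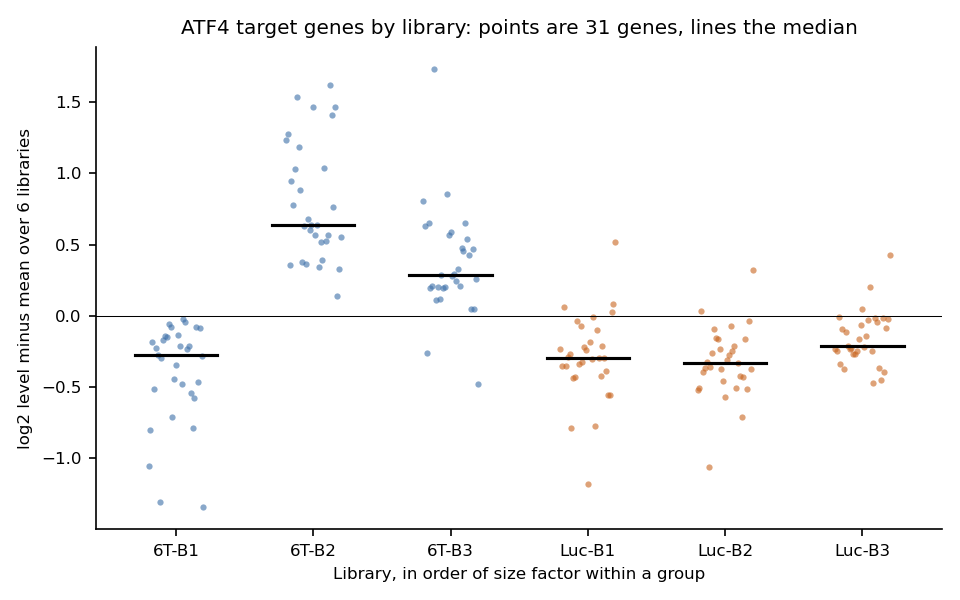
Log2 level of 31 ATF4 target genes in each library of condition B, as the difference from each gene's mean over the 6 libraries. Points are genes and black lines the median of the library, which is 0.64 in 6T-B2, 0.28 in 6T-B3 and between −0.33 and −0.21 in the other 4.

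In the heat shock list, library 6T-B1 lay above the other two 6T libraries in 19 of 25 tested members, and 6T-B2 and 6T-B3 lay below all 3 Luciferase libraries in 9. The share of all tested genes with these layouts is not given here, so the counts are a description. The list's medians by library were 0.20, −0.21 and −0.08 under 6T and 0.08, 0.08 and 0.12 under Luciferase. Over all genes these medians lay between −0.006 and 0.014. HSPA1B, an inducible HSP70 gene, stood at 5314, 586.5 and 691.3 normalized reads under 6T and at 4592, 4808 and 3437 under Luciferase. DNAJB1, its cochaperone, stood at 1458, 724.7 and 679.3 under 6T and at 1553, 1470 and 1290 under Luciferase. In both genes 6T-B1 stood with the Luciferase libraries and the other two 6T libraries stood below, so the guides overlapped (log2 difference 1.71, SE 0.77, for HSPA1B and 0.68, SE 0.28, for DNAJB1, limma adjusted p = 0.913 and 0.905). HSPA1B has a near-identical copy, HSPA1A, and how reads were divided between the pair is uncertain. The cochaperone gene BAG3 was higher in every Luciferase library, at 0.41 (SE 0.15, limma adjusted p = 0.905). Over the list 18 of 28 members (64.3%, against 48.3% of all genes) were higher, with a median log2 ratio of 0.07 in condition B and −0.19 in condition A. At an unadjusted p under 0.05, 3 of 25 tested members were higher, against a background of 3.46%. The median of the members' log2 differences, 0.09, became −0.0047 without 6T-B2 and 0.16 without 6T-B1.

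The interferon-stimulated genes had 32 of 45 members measured, 23 of them (71.9%, against 48.3% of all genes) higher under Luciferase. Their median log2 ratio was 0.13 in condition B and 0.11 in condition A. None was called. At an unadjusted p under 0.05, 5 were higher (IFIT1, IFIT2, IFIT3, OASL and PARP9) and 0 lower, beside a background of 3.46%. But IFIT2, IFIT3, OASL and PARP9 reached the minimum mean only through the Luciferase libraries. This count, the 23 members higher and the median in condition B are therefore set in part by the choice of genes and are descriptions. With all libraries thinned to equal depth PARP9 turned from 0.69 (SE 0.31) to −0.42. IFIT2, which binds foreign RNA (chromosome 10, from 89283694 to 89309276), stood at 3.03, 6.98 and 10.7 normalized reads under 6T and at 21.8, 29 and 31.0 under Luciferase. OASL, a relative of the oligoadenylate synthetases, stood at 1.52, 8.38 and 9.55 under 6T and at 19.3, 20.4 and 18.7 under Luciferase. Neither gene overlapped between the guides, with log2 differences of 1.95 (SE 0.34, limma adjusted p = 0.161) and 1.70 (SE 0.41, limma adjusted p = 0.726).

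These levels were low, with 2, 5 and 9 reads of IFIT2 and 1, 6 and 8 reads of OASL in the 6T libraries before scaling. The difference of OASL became 1.04 and that of IFIT3, 1.53 (SE 0.42), became 0.96 without 6T-B1. In condition A IFIT2 differed by 0.29 (SE 0.34) between guides, with 45.3 to 81.5 normalized reads under 6T, and the interaction term had a limma adjusted p of 0.483. Members that did not reach that p included ISG15, a ubiquitin-like modifier, at 0.44 (SE 0.30). IFI27, HERC6 and IFIT5, 3 of 32 members, had every Luciferase library below every 6T library, against 6.19% of all tested genes. Their differences were −0.44 (SE 0.44), −0.38 (SE 0.19) and −0.29 (SE 0.29). In 8 of 32 members every Luciferase library lay above every 6T library, against 6.71%. Among them were IFIT2, IFIT3 and OASL, which reached the minimum mean only through the Luciferase libraries. The choice of genes thus set this count in part, and it is a description. IFI27 reached the minimum mean only through the 6T libraries. The IFIT genes are similar in sequence, and how shared reads were assigned is not stated. With all libraries thinned to the smallest, the median of the list's log2 differences went from 0.13 to 0.024.

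**Figure D5:**
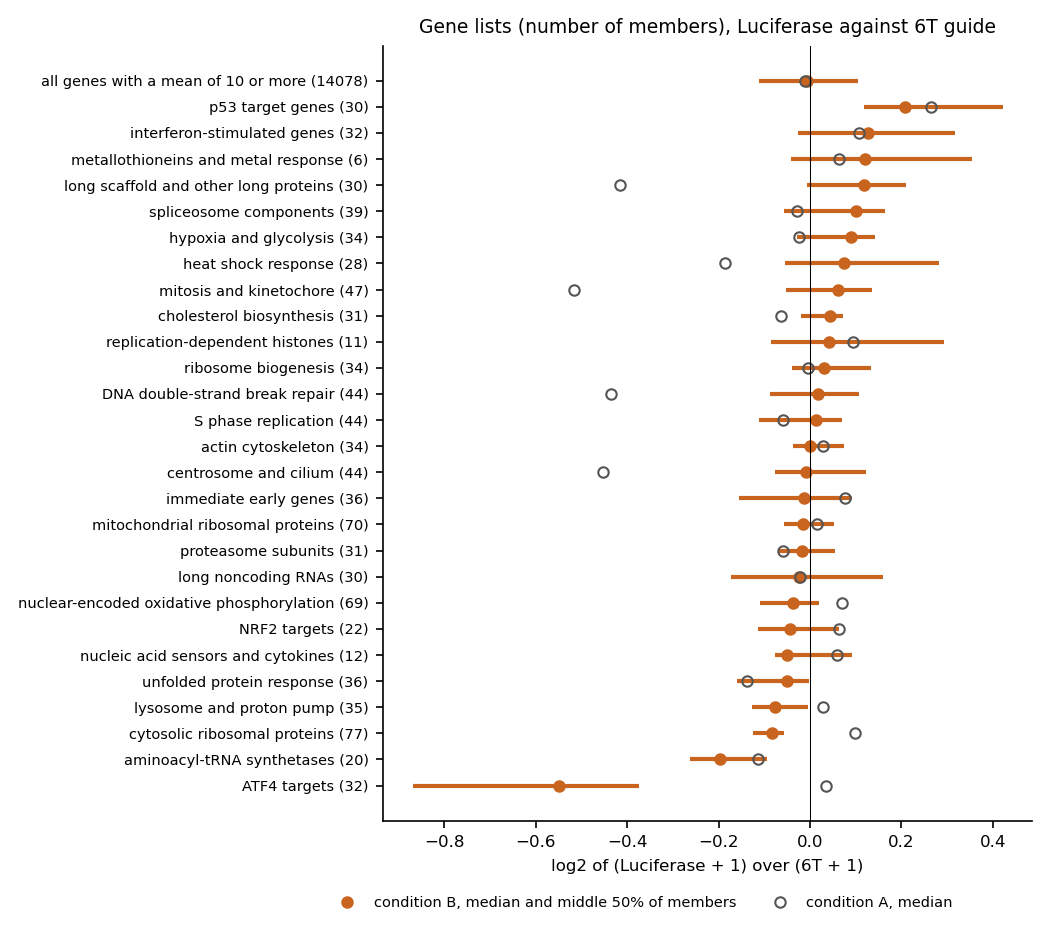
Median log2 ratio of Luciferase over 6T for the 27 gene lists that are not cell type markers and for all genes, in condition B (filled, bars spanning the middle 50% of members) and condition A (open), with the number of members in parentheses. In condition B these medians run from −0.55 for ATF4 targets to 0.21 for p53 targets, and most others lie within 0.1 of 0.

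Several lists with low medians in condition A lay nearer to all genes in condition B. Ratios in condition A followed GC content across genes (Spearman's rho 0.73). Genes with a GC content of 31.4% to 40.4% had a median there of −0.52, and those with 62.4% to 76.8% one of 0.24. The list medians below are not corrected for GC content, and whether their low values in condition A went with it was not tested. The median of mitosis and kinetochore genes was 0.06 in condition B and −0.52 in condition A. That of DNA double-strand break repair genes was 0.02 and −0.44, and that of centrosome and cilium genes −0.01 and −0.45. Long scaffold, ubiquitin ligase and nuclear pore proteins had medians of 0.12 and −0.42, with 22 of 30 members (73.3%, against 48.3%) higher in condition B. In 5 of its 29 tested members every Luciferase library lay above every 6T library, against 6.71% of all genes, and the median of the members' differences, 0.11, ranged from −0.028 without Luc-B3 to 0.24 without Luc-B1. Cytosolic ribosomal proteins had 71 of 77 members (92.2%, against 51.7% of all genes) lower in condition B at a median of −0.08. Reads were recovered for only 42 of the 77, and 1 of these, RPL6, was lower at an unadjusted p under 0.05, against a background of 1.91%. In 9 of the 42 every Luciferase library lay below every 6T library, against 6.19% of all tested genes.

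Of the members with the smallest p in these lists none was called, and the ones described here were chosen after their values were seen. MKI67, a proliferation marker that coats mitotic chromosomes, stood at 5571, 4265 and 4544 normalized reads under 6T and at 5919, 5797 and 6206 under Luciferase (log2 difference 0.33, SE 0.13). RNF168, a ubiquitin ligase of the break response, stood at 332.2, 241.6 and 249.5 under 6T and at 335.0, 355.4 and 343.6 under Luciferase (0.34, SE 0.13). In both genes the guides were apart, with 6T-B1 the closest 6T library to the Luciferase libraries, and the limma adjusted p was 0.905. In condition A the differences were 0.05 (SE 0.13) for MKI67 and −0.03 (SE 0.14) for RNF168.

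UBR4, a giant ubiquitin ligase, stood at 4623, 5582 and 5362 under 6T and at 6380, 6267 and 7065 under Luciferase, with a difference of 0.34 (SE 0.10) in condition B and 0.33 (SE 0.10) in condition A. CDK5RAP2, a scaffold of the centrosome, stood at 1242, 1226 and 1203 under 6T and at 1419, 1409 and 1438 under Luciferase (0.22, SE 0.07). POLE, the catalytic subunit of a replicative polymerase, differed by 0.19 (SE 0.08), and the splicing factor gene SRSF11 by 0.32 (SE 0.13). In all 4 genes every Luciferase library lay above every 6T library, as in 6.71% of all tested genes. Like MKI67 and RNF168, they had the smallest p of their lists, so the separation is no further evidence. In other lists the member with the smallest p overlapped between the guides, as HERPUD1, NOP2 and PFKFB4 did.

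Of 30 long noncoding RNAs 17 were lower, with a median log2 ratio of −0.02. At an unadjusted p under 0.05, 5 were higher against a background of 3.46%, SNHG12 and PVT1 together with SNHG15, SNHG17 and KCNQ1OT1, and SNHG1 was lower. SNHG1, another host transcript of small nucleolar RNAs, stood at 1330, 3163 and 2366 under 6T and at 1133, 1270 and 1532 under Luciferase, the layout of the ATF4 targets. SLC7A11, the cystine transporter gene shared by the NRF2 and ATF4 programmes, had that layout too, at 224.5, 790.4 and 429.8 under 6T and 125.4, 192.0 and 295.0 under Luciferase. Its difference of −1.14 (SE 0.43) became −0.69 without 6T-B2. TRIB1, a pseudokinase gene of the early response, did not share it, at 612.7, 594.9 and 507.4 under 6T and 432.5, 454.9 and 442.6 under Luciferase (−0.36, SE 0.13).

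Single libraries also set the largest ratios among all genes, which were chosen here after their values were seen. RPPH1, RMRP and RN7SK encode structured small RNAs of RNase P, RNase MRP and the 7SK particle, which carry no polyA tail. RPPH1 stood at 6.07, 4.19 and 4.78 normalized reads under 6T and at 169.5, 5.09 and 4.35 under Luciferase, so its log2 ratio of 3.34 came from library Luc-B1. In condition A library Luc-A3 alone held many reads of these RNAs, with 293 of RPPH1, 193 of RMRP and 182 of RN7SK, against 9 or fewer in the others. RMRP and RN7SK had 242 and 281 recovered reads in Luc-B1 and 11 or fewer in every other library of condition B. Under 6T, FUT1, a fucosyltransferase gene, stood at 15.2, 147 and 45.4 against 12.9 to 16.4 under Luciferase, the lowest log2 ratio of all genes at −2.14.

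For abundant genes whose single-library reads were not recovered under at least 1 guide, only the deposited means can be compared, without error or test. TSC22D3, a glucocorticoid-induced regulator, had a mean of 10951 normalized reads under 6T and 5862 under Luciferase. RHOB, a stress-responsive GTPase, had 6499 and 3750, and JUN, a subunit of the AP-1 transcription factor, 10843 and 7329. HSPA8, the constitutive HSP70 chaperone, had 12048 and 17462, and SRRM2, a splicing protein, 11897 and 14955. The 6T libraries of SRRM2 were recovered, at 14740.5, 9814.1 and 11135.5, so 6T-B1 lay near the Luciferase mean. In condition A the log2 ratios were −0.46 for TSC22D3, −0.12 for RHOB, 0.03 for JUN, −0.08 for HSPA8 and 0.18 for SRRM2.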

How the data were processed

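Cells, plasmids and library groups are as given in the labels. Per the submitters' processing notes, the authors used STAR, HTSeq and DESeq with the hg38 build, and versions are not given in the sources used here. The deposited values used here are, per the file headers, the mean normalized read counts of each condition, 1 table per guide. The authors' own fold changes and p-values compare B with A and were not used.

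Whole reads per library were searched for behind each mean, with fewer than 0.01 chance solutions allowed. A single solution was found for 99.9% of genes above 0 in the 6T libraries and 99.5% in the Luciferase libraries of condition B. Genes left out held 5.69% to 5.95% and 15.3% to 15.5% of reads, and 26372 of 26485 genes were recovered in all 12 libraries. The size factors behind the recovered reads lay within 0.083% of those computed over all 12 libraries by the median of ratios, against 36.7% for those of single tables, so the tables share 1 normalization. The search and the fit were tested on simulated data.

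On log2(normalized reads + 1) of 12 libraries in 4 groups, limma 3.58.1 (R 4.3.3) was run with a trend of variance on level, for genes with a mean of 10 or more, with two-sided tests and Benjamini-Hochberg adjustment. The 1 added draws the ratios of low genes towards 0. A difference of mean log2 values can still exceed the log2 ratio of the deposited means with 1 added, as for OASL (1.70 against 1.45). The rule for named genes took the 8 genes per direction with the smallest p and a mean of 50 or more, the member with the smallest p of each of 32 lists, 4 genes per direction without recovered reads, and for the change between conditions the 6 of smallest p. List members beyond these were named after their values were seen. The members and lists were chosen with earlier results of these data known. Positions are from GENCODE 29 and promoter sequences from RefSeq. Library pairs within a guide differed by a mean of 4.49 to 25.4 times the counting variance per gene (medians 1.30 to 6.31), so none was a repeat count of the same library. Separate cultures and separate preparations of the same RNA cannot be told apart this way.

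Alternatives were other pseudocounts, filters and scalings, thinning, library weights, GC correction, the 6 libraries alone and leaving out each library.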

Additional observations from a re-analysis of the deposited data

How the results depend on the processing

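No paired analysis was possible because the recovered libraries carry no replicate number. In condition B the count of genes called, 0, became 46 with library quality weights (estimated gene by gene) and 1 after GC correction, and it ranged from 0 to 2 when each library was left out. It stayed at 0 under the other alternatives, with 616 to 1076 genes at an unadjusted p under 0.05, and also in a fit without library Luc-A1, chosen after seeing the data (977). The change between conditions had 0 calls under every alternative run, with 504 to 2940 genes at an unadjusted p under 0.05. In condition A the count, 14, was 2 with the 6 libraries alone, 6 with no minimum mean, 158 with a minimum mean of 50, 282 and 810 with total-read and upper-quartile scaling, 4 after thinning, 1682 with library weights and 7 after GC correction, and it ranged from 0 (without 6T-A1, 6T-A3 or Luc-A1) to 1078 (without Luc-A2). The 40 genes past 2-fold became 16 with a pseudocount of 10 and 10 with a minimum mean of 50.

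List medians moved by more than the spread between libraries as follows. Interferon-stimulated genes (0.13) were at 0.062 with a minimum mean of 50 and 0.024 after thinning, immediate early genes (−0.01) at −0.10 with library weights, and metal response genes (0.12) at 0.26 with a minimum mean of 50 and 0.26 with library weights. With single libraries left out, medians ranged from 0.079 to 0.13 for interferon-stimulated genes, 0.19 to 0.29 for p53 targets, −0.052 to 0.10 for double-strand break repair, 0.051 to 0.25 for histones, −0.25 to −0.10 for aminoacyl-tRNA synthetases and −0.081 to 0.0055 for NRF2 targets. Of 51 named genes, KDR (0.48) turned to −0.22 after thinning and ranged from −0.045 (without 6T-B2) to 0.79, and OMA1 (0.11) from −0.0074 (without Luc-B3) to 0.198, with single libraries left out. The cause of these shifts was not tested, and depth and guide cannot be told apart in condition B.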
